A study of Mus musculus with 8 samples.

Results

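The genes described here are 10 enzymes of liver steroid metabolism: the hydroxysteroid dehydrogenase paralogues Hsd3b3, Hsd3b2, Hsd3b5 and Hsd3b6, and the genes Cyp17a1, Srd5a1, Akr1c6, Hsd17b2, Hsd17b13 and Hsd11b1. They were taken by name from the 20894 genes of the deposited count table, and the paralogues were also summed. They were chosen by the fold change and adjusted p of Hsd3b3 between POLR2G and GFP livers, together with the known roles of its relatives, and with the other values of that contrast known. That contrast is therefore described for these genes by values, folds and standard errors (SE), with no p as support. All 10 had a row in the table, and 9 passed the filter on low counts.

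The POLR2G livers came from wild-type mice given AAV8-TBG-POLR2G, and the GFP livers from wild-type mice given AAV8-TBG-GFP. AAV8 is an adeno-associated virus that enters hepatocytes efficiently, the TBG promoter is active mainly in hepatocytes, and POLR2G is a subunit of RNA polymerase II. Both groups were fasted during the day before liver was taken, and poly-A RNA was sequenced, with 4 libraries per group. The labels give no age, sex or strain and tie no library to an animal, so every spread below is between libraries and may be in part technical. In bulk liver, fewer cells of a type and less RNA per cell cannot be told apart.

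Hydroxysteroid dehydrogenases of the Hsd3b family convert steroid precursors into the keto steroids from which the active hormones are made, and in mice several copies serve different organs. The liver is mainly a site where circulating steroids are oxidised, reduced and conjugated for excretion, and several of its steroid enzymes differ between male and female mice under the control of the pattern of growth hormone release. In mice Hsd3b5 encodes a ketosteroid reductase made chiefly in male liver, Hsd3b2 and Hsd3b3 are made in liver and kidney, and Hsd3b6 and Hsd3b1 are best known from steroid-producing tissues.

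The paralogues lie next to each other on the minus strand of chromosome 3 (GENCODE M21 annotation, GRCm38). Hsd3b5 spans 98618634 to 98630252, Hsd3b2 98709255 to 98724543, Hsd3b3 98741523 to 98763127 and Hsd3b6 98805504 to 98814443. Their coding sequences have the same length of 1119 bases without the stop codon. Hsd3b3 was 95.1% identical to Hsd3b2 in coding sequence, 94.5% to Hsd3b6 and 79.5% to Hsd3b5. Among the genes compared, Hsd3b1 to Hsd3b7, the closest to Hsd3b5 was Hsd3b4 at 95.2%. The gene models Gm10681 and Gm4450 of the cluster were not aligned. Hsd3b4 was not analysed here. Sequence upstream of the starts gave another grouping. Over 250 bases the Hsd3b3 window had the same base as the Hsd3b5 window at 60.4% of its positions after alignment, against 46.8% for the Hsd3b2 window and 41.2% for the Hsd3b6 window. The windows of the 3 paralogues with counts are shown because coding and upstream sequence pair them differently. They are from RefSeq (GRCm38.p6, minus strand), 5′ to 3′ and ending at the base before the annotated start, at chr3:98763129-98763378 for Hsd3b3, chr3:98645535-98645784 for Hsd3b5 and chr3:98724544-98724793 for Hsd3b2. RefSeq starts Hsd3b5 further upstream than GENCODE does. Capitals mark stretches of 12 or more bases shared unbroken between the Hsd3b3 window and the other window.
Hsd3b3: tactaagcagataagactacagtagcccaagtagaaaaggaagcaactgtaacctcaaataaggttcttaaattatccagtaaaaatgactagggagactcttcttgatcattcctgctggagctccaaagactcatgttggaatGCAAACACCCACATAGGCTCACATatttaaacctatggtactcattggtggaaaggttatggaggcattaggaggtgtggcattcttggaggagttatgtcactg
Hsd3b5: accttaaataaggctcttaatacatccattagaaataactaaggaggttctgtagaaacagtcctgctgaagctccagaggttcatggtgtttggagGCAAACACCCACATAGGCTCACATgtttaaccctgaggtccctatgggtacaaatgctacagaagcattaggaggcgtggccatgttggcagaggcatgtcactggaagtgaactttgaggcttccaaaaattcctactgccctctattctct
Hsd3b2: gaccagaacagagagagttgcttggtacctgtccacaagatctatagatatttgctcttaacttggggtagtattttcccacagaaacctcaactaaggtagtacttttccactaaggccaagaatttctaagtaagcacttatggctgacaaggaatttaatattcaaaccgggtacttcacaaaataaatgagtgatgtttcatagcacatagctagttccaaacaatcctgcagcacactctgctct
The Hsd3b3 and Hsd3b5 windows shared 1 such stretch, of 24 bases, and the Hsd3b3 and Hsd3b2 windows shared 0. RefSeq has a further Hsd3b3 start 718 bases downstream, whose upstream window matched the first at 248 of 249 aligned bases. Of the 10 genes, 8 had a RefSeq window. The letters TTCNNNGAA, a core that STAT5 can bind, were searched on both strands, as were the other motifs, and stood in none of the windows of those 8 genes and in 7.02% of all 32851 windows. AAGGTCA, a half-site of NR5A receptors, stood in none of them and in 4.08% of all windows. AGAACA, a half-site of steroid receptors, stood in the Hsd3b2 and Hsd3b6 windows and in 16.1% of all windows. TGTTTAC, a core of FOXA sites, stood in the Hsd11b1 window and in 3.17% of all windows. The nuclear receptor direct repeat with a spacer of 1 base, named DR1, stood in none of the 8 genes' windows and in 0.0335% of all. Its repeated unit overlaps AAGGTCA.

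The similarity bears on how counts were assigned. Of the distinct 31-base words in the coding transcripts of Hsd3b3, 36.6% occurred in transcripts of another gene, most of them in Hsd3b2 (32.2% of the words) and Hsd3b6 (22.5%). The share was 36.3% for Hsd3b2, 34.1% for Hsd3b5, 29.5% for Hsd3b6, 17.1% for Srd5a1 and 6.66% for Akr1c6. It was 2.46% for Hsd17b13 and 0% for Cyp17a1, Hsd17b2 and Hsd11b1. The split of estimated counts among Hsd3b2, Hsd3b3 and Hsd3b6 is therefore uncertain. Hsd3b5 shared words chiefly with Hsd3b4 and the gene model Gm10681 (25.6% of its words each), which lie outside the paralogue sum. Hsd3b4 had no row in the deposited counts, and Gm10681 had 10 counts over all libraries. How far reads of these genes entered the Hsd3b5 counts was not tested. Zfp697, not analysed here, lies on the opposite strand and overlaps 12290 bases of the Hsd3b3 locus. The libraries kept strand per the labels' protocols, while no source used here gives the strand setting of the counting.

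Total counts ranged from 16362899 to 22165491 in the POLR2G libraries and from 14159056 to 18865284 in the GFP libraries. Polr2g, which checks the labels, had 38649 to 54553 counts in the POLR2G libraries and 213 to 258 in the GFP libraries. One POLR2G column carries a number the labels do not list and is called the unnumbered library. The table gives only 0 to 29 counts per library to Actb and 0 to 3 to the ribosomal protein gene Rpl3, both used by nearly every cell, so a value may hold only part of a gene's transcripts. The sum of the hepatocyte markers overlapped between the groups, at 123010 to 137644 CPM (the usual library-size-scaled count unit, here with TMM scaling) in the POLR2G libraries and 130936 to 152388 CPM in the GFP libraries, and most of that sum is Alb. Of its 9 tested markers 7 had a lower mean in POLR2G livers, and Ttr, which carries thyroid hormone, did not overlap, at 5009 ± 167 CPM in POLR2G livers and 5705 ± 467 CPM in GFP livers (SD, n = 4 each). The part of this in the values of the steroid genes was not tested. Of 9 adrenal cortex markers in the table, Cyp11a1, Cyp11b1, Nr5a1 and Mc2r had 0 counts in all libraries.

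Hsd3b3 was higher in every POLR2G library than in any GFP library. It measured 293, 288, 336 and 306 CPM in POLR2G replicates 1, 3 and 4 and the unnumbered POLR2G library. In GFP replicates 1 to 4 it measured 189, 203, 189 and 198 CPM. The libraries of each group lay close together, with a coefficient of variation of 7.03% in POLR2G livers and 3.63% in GFP livers, the smallest of the 9 genes in GFP livers. The means were 306 ± 21.5 CPM in POLR2G livers and 195 ± 7.07 CPM in GFP livers (SD, n = 4 each), a fitted fold of 1.57 (log2 fold change 0.65, SE 0.0690). Leaving out 1 library at a time kept the log2 fold change between 0.60 and 0.68. Its call by edgeR ended when GFP replicate 2 (adjusted p = 0.0701), GFP replicate 4 (0.0792), POLR2G replicate 1 (0.101), POLR2G replicate 4 (0.0642) or the unnumbered POLR2G library (0.0570) was left out. It also ended with library totals as the only scaling (0.103) and with the replicate number as a block over 6 libraries (0.291). Whether these numbers pair the libraries cannot be told.

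Hsd3b2, the closest relative in coding sequence among the genes with counts, did not show that separation. It measured 92.5, 111, 111 and 85.6 CPM in POLR2G replicates 1, 3 and 4 and the unnumbered library, and 94.1, 92.2, 82.8 and 91.3 CPM in GFP replicates 1 to 4. POLR2G replicates 3 and 4 were above all GFP libraries, while the other POLR2G libraries lay within the GFP range. The log2 fold change was 0.15 (SE 0.0972). There were 2.60 to 3.57 Hsd3b3 counts for each Hsd3b2 count in the POLR2G libraries and 2.01 to 2.28 in the GFP libraries, ranges that do not overlap. This ratio rests on the uncertain split between the genes.

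Hsd3b5 was the most variable paralogue among GFP livers. It measured 211, 171, 224 and 195 CPM in POLR2G replicates 1, 3 and 4 and the unnumbered library, against 195, 145, 79.3 and 164 CPM in GFP replicates 1 to 4. The groups overlapped, and GFP replicate 3 stood far below the rest. The log2 fold change was 0.46 (SE 0.230) with all libraries and 0.25 (SE 0.124) without GFP replicate 3, so the value rests in part on that library. The coefficient of variation was 11.4% in POLR2G livers and 33.5% in GFP livers.

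Hsd3b6 had 0 counts in all 8 libraries, which allows up to 0.145 to 0.180 CPM in the POLR2G libraries and 0.162 to 0.193 CPM in the GFP libraries (3 counts per library, counting error only). Since Rpl3 is also at 0 in every POLR2G library, a 0 in this table does not bound expression of the gene. Reads that Hsd3b6 shares with Hsd3b2 and Hsd3b3 could have been assigned to those genes.

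The summed counts of the 4 paralogues do not depend on how reads were split among these 4 genes. They can still depend on reads shared with genes outside the sum, such as Hsd3b4 and Gm10681. The sum was 597, 569.6, 671 and 586 CPM in POLR2G replicates 1, 3 and 4 and the unnumbered library. In GFP replicates 1 to 4 it was 478, 441, 351 and 453 CPM. The groups did not overlap, at 606 ± 44.6 CPM in POLR2G livers and 431 ± 55.2 CPM in GFP livers (SD, n = 4 each), 1.41-fold on the log scale (log2 difference 0.50). Without GFP replicate 3 the difference was 0.40. The sum without Hsd3b5 was 406 ± 27.98 CPM in POLR2G livers and 285 ± 10.1 CPM in GFP livers, a log2 difference of 0.51. Hsd3b3 made up 50.5% ± 1.27 of the paralogue counts in POLR2G livers and 45.8% ± 6.02 in GFP livers, and Hsd3b2 16.5% ± 2.12 and 21.1% ± 1.74 (SD, n = 4 each). In GFP replicate 3 Hsd3b3 made up 53.8% and Hsd3b5 only 22.6%, against 32.9% to 40.8% for Hsd3b5 in the other GFP libraries.

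**Figure D1:**
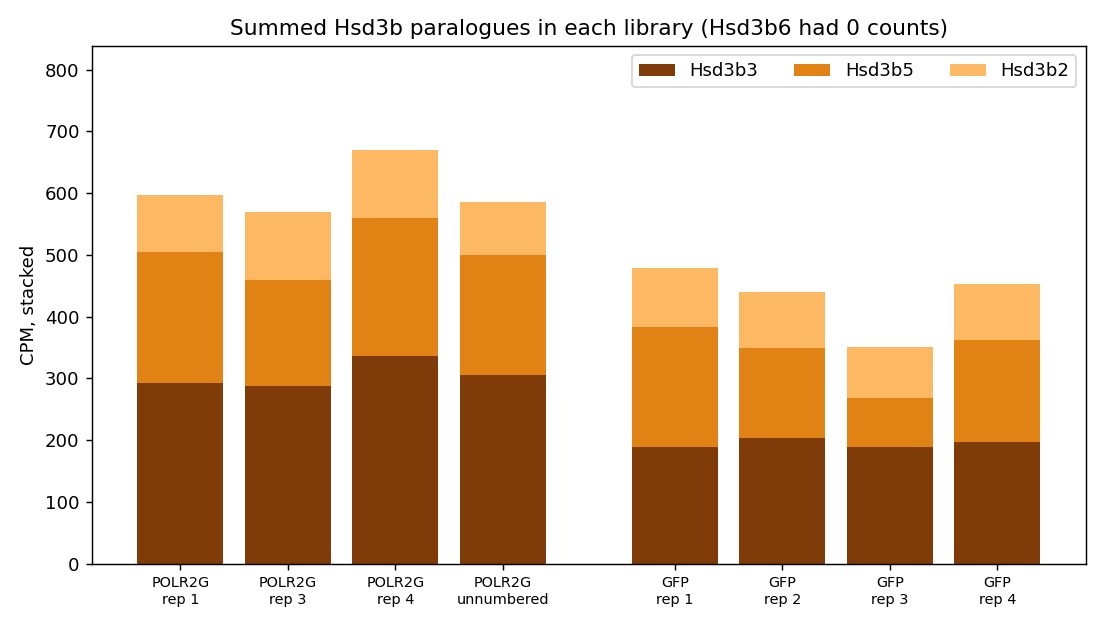
CPM of Hsd3b3, Hsd3b5 and Hsd3b2 stacked for each library, with the 4 POLR2G libraries on the left and the 4 GFP libraries on the right. The POLR2G bars reach 569.6 to 671 CPM and the GFP bars 351 to 478 CPM, and the Hsd3b5 segment is smallest in GFP replicate 3.

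Cyp17a1 encodes the steroid hydroxylase and lyase that leads to glucocorticoid and sex steroid precursors, and in mouse liver it is known to be higher in females. It measured 8.68, 7.84, 5.24 and 10.5 CPM in POLR2G replicates 1, 3 and 4 and the unnumbered library, and 14.6, 13.3, 33.8 and 19.6 CPM in GFP replicates 1 to 4. All POLR2G libraries were below all GFP libraries, and GFP replicate 3 was the highest. The means were 8.06 ± 2.18 CPM in POLR2G livers and 20.3 ± 9.40 CPM in GFP livers (SD, n = 4 each), 2.52-fold lower in POLR2G livers (log2 fold change -1.33, SE 0.317). Without GFP replicate 3 the GFP mean was 15.8 ± 3.33 CPM (n = 3), the groups still did not overlap, and the log2 fold change was -0.98 (SE 0.237). Counts were 92 to 180 in the POLR2G libraries and 229 to 525 in the GFP libraries. No other gene shared its 31-base words.

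The same library held the lowest Hsd3b5 and the highest Cyp17a1 value. GFP replicate 3 had 0.426 Cyp17a1 counts for each Hsd3b5 count, against 0.0234 to 0.0538 in the POLR2G libraries and 0.0750 to 0.120 in the other GFP libraries. Several other sex-biased genes also stood apart in that library, and others did not (all chosen after their values were seen). Male-biased Cyp4a12a measured 341 to 460 CPM in the POLR2G libraries, 91.9 CPM in GFP replicate 3 and 442 to 563 CPM in the other GFP libraries. The female-biased transcription factor gene Cux2 measured 0.234 to 0.658 CPM in the POLR2G libraries, 6.57 CPM in GFP replicate 3 and 0.113 to 0.379 CPM in the other GFP libraries. Male-biased Mup20 measured 11652 to 17548 CPM in the POLR2G libraries, 14113 CPM in GFP replicate 3 and 13716 to 15992 CPM in the other GFP libraries, and so lay within the range. Male-biased Slco1a1 measured 774 to 889 CPM in the POLR2G libraries, 699.5 CPM in GFP replicate 3 and 854 to 878 CPM in the other GFP libraries. Eif2s3y, a gene of the Y chromosome, measured 46.3 to 63.8 CPM in the POLR2G libraries, 21.7 CPM in GFP replicate 3 and 55.0 to 62.5 CPM in the other GFP libraries. Uty, another Y-linked gene, measured 1.40 to 10.1 CPM in the POLR2G libraries, 1.80 CPM in GFP replicate 3 and 3.25 to 4.98 CPM in the other GFP libraries, so GFP replicate 3 lay within the POLR2G range. Whether GFP replicate 3 holds the same kind of liver as the other GFP libraries is in doubt from these values, and that doubt reaches every GFP mean, SD and fold with that library in it. The part of these differences in the Hsd3b5 and Cyp17a1 values was not tested.

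**Figure D2:**
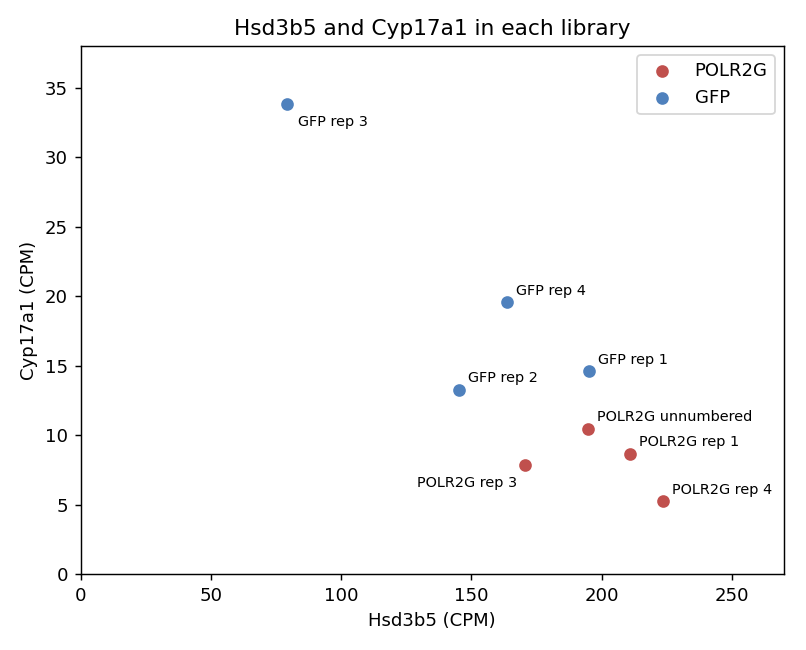
Cyp17a1 (vertical axis, CPM) against Hsd3b5 (horizontal axis, CPM), with 1 point per library. The POLR2G points lie between 5.24 and 10.5 CPM of Cyp17a1, and GFP replicate 3 lies apart at 79.3 CPM of Hsd3b5 and 33.8 CPM of Cyp17a1.

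In each of the remaining genes, which mostly reduce or oxidise steroids, the groups overlapped. Srd5a1, which encodes the steroid reductase that makes dihydrotestosterone and also prepares steroids for excretion, measured 179, 151, 166 and 184 CPM in POLR2G replicates 1, 3 and 4 and the unnumbered library. It measured 150.1, 165, 128 and 148 CPM in GFP replicates 1 to 4. The groups overlapped, with a log2 fold change of 0.20 (SE 0.0937).

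Akr1c6, an aldo-keto reductase that reduces sex steroids in mouse liver, had a log2 fold change of 0.24 (SE 0.162). It measured 13.3, 11.1, 15.03 and 11.8 CPM in POLR2G replicates 1, 3 and 4 and the unnumbered library, against 9.998, 14.1, 9.92 and 9.42 CPM in GFP replicates 1 to 4. The groups overlapped through GFP replicate 2, and without that library the log2 fold change was 0.39.

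Hsd17b2, which inactivates oestradiol and testosterone by oxidation, measured 123 to 143 CPM in the POLR2G libraries and 116 to 143 CPM in the GFP libraries. GFP replicate 1 was as high as the POLR2G libraries, and the other GFP libraries lay at 116 to 121 CPM, below all of them. The log2 fold change was 0.14 (SE 0.0870). Without GFP replicate 1 it was 0.21.

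Hsd17b13, which encodes a protein of hepatocyte lipid droplets with retinol dehydrogenase activity, had the smallest log2 fold change of the 9 tested genes. It measured 369, 435, 400.1 and 389 CPM in POLR2G replicates 1, 3 and 4 and the unnumbered library, and 393, 424, 442 and 389 CPM in GFP replicates 1 to 4. The ranges nearly coincided (log2 fold change -0.050, SE 0.0752).

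Hsd11b1 encodes the reductase that regenerates active glucocorticoid inside liver cells. It measured 43.8, 48.9, 40.2 and 66.01 CPM in POLR2G replicates 1, 3 and 4 and the unnumbered library, and 44.2, 66.9, 68.5 and 48.0 CPM in GFP replicates 1 to 4. Both groups held high and low libraries, so the coefficient of variation was 23.0% in POLR2G livers and 22.2% in GFP livers. The log2 fold change was -0.19 (SE 0.189), -0.36 without the unnumbered POLR2G library and -0.093 without GFP replicate 3.

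Of the 9 genes that passed the low-count filter, 6 had a higher and 3 a lower mean in POLR2G livers, and the median log2 fold change was 0.15 against -0.0031 over all 10390 genes tested. By edgeR's quasi-likelihood test with Benjamini-Hochberg adjustment, 1 of the 9, Hsd3b3, passed 0.05, where 0.0385% of all genes tested did (4 genes, 0.0192% higher and 0.0192% lower). DESeq2 called 2 of them, Hsd3b3 and Cyp17a1, where it called 1.80% of the genes it adjusted. The groups did not overlap for the same 2 genes, as for 5.51% of all genes tested (2.83% higher and 2.68% lower in POLR2G livers). Because the contrast chose the genes, nothing is read from these shares.

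**Figure D3:**
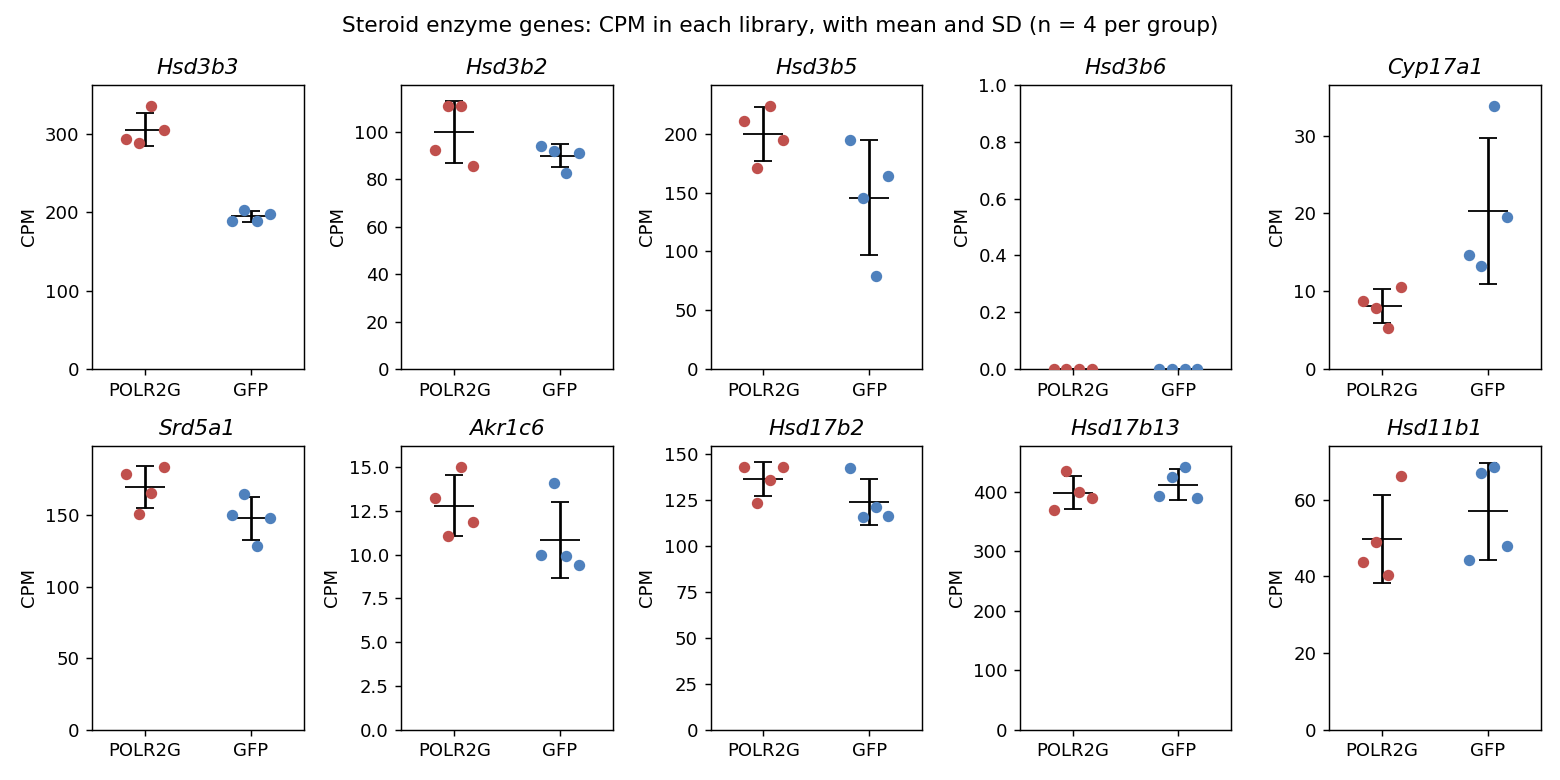
CPM of each of the 10 genes in every library, with POLR2G libraries in red on the left and GFP libraries in blue on the right of each panel; points are libraries and the bar gives mean and SD (n = 4 per group). Hsd3b3 and Cyp17a1 are the panels in which the groups do not overlap, and Hsd3b6 is at 0 in all 8 libraries.

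**Figure D4:**
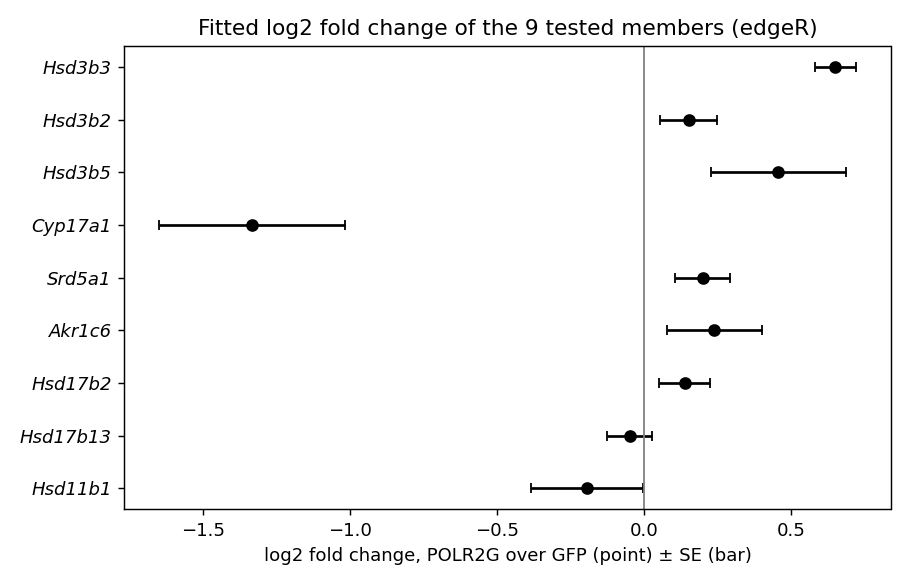
Fitted log2 fold change of POLR2G over GFP for the 9 tested genes (point) with its SE (bar). Hsd3b3 stands at 0.65, Cyp17a1 at -1.33, and the other 7 genes lie between -0.19 and 0.46.

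Levels were compared between genes per kilobase of coding sequence, which leaves out the untranslated parts of the transcripts, and the order depends on that length. A value may also hold only part of a gene's transcripts, as the low counts of Actb and Rpl3 show. The order below is therefore that of the deposited counts and may differ from that of the genes' full expression. Hsd17b13 was the highest, at 437 ± 30.6 CPM per kilobase in POLR2G livers and 452 ± 27.9 in GFP livers (SD, n = 4 each). In POLR2G livers Hsd3b3 came next with 273 ± 19.2, followed by Srd5a1 with 222 ± 19.3 and Hsd3b5 with 179 ± 20.4 CPM per kilobase. In GFP livers Srd5a1 with 193 ± 19.8 and Hsd3b3 with 174 ± 6.32 CPM per kilobase of coding sequence differed by less than the SD of Srd5a1, and Hsd3b5 had 130.3 ± 43.7. Hsd17b2 had 119 ± 8.08 in POLR2G livers and 108 ± 11.1 in GFP livers, and Hsd3b2 had 89.4 ± 11.6 in POLR2G livers and 80.5 ± 4.46 in GFP livers. Hsd11b1 had 56.8 ± 13.0 CPM per kilobase in POLR2G livers and 65.0 ± 14.4 in GFP livers. The lowest levels were those of Akr1c6, at 13.2 ± 1.80 in POLR2G livers and 11.2 ± 2.24 in GFP livers, and Cyp17a1, at 5.30 ± 1.43 in POLR2G livers and 13.4 ± 6.18 in GFP livers. Per kilobase of the whole transcript with the longest coding sequence, a scale chosen after seeing the data, part of the order turned. Srd5a1, whose transcript has a long untranslated part, then had 64.3 ± 5.57 CPM per kilobase in POLR2G livers and 55.9 ± 5.71 in GFP livers. That is below Hsd3b3 (199 ± 14.01 in POLR2G livers and 127 ± 4.61 in GFP livers), Hsd3b5 (129 ± 14.8 in POLR2G livers and 94.1 ± 31.6 in GFP livers) and Hsd17b2 (103 ± 7.00 in POLR2G livers and 93.9 ± 9.62 in GFP livers). Hsd3b2, at 27.1 ± 3.51 in POLR2G livers and 24.4 ± 1.35 in GFP livers, then differed from Hsd11b1, at 30.6 ± 7.04 in POLR2G livers and 35.1 ± 7.77 in GFP livers, in the other direction. On both scales Hsd17b13 was the highest of the 9 genes.

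The genes whose profile over the 8 libraries was most like that of Hsd3b3 were Mpv17l, Polr2l, Otc, Ces1g and Olfr90. Likeness was the root mean square difference of log2 CPM, each gene centred on its own mean, among 8288 named genes. Mpv17l, which encodes a membrane protein of mitochondria and peroxisomes, differed by 0.0856 and measured 18.03 ± 0.438 CPM in POLR2G livers and 11.96 ± 0.913 CPM in GFP livers. Polr2l, a small subunit of the RNA polymerases, differed by 0.121 and measured 44.4 ± 2.28 CPM in POLR2G livers and 32.6 ± 1.46 CPM in GFP livers. Otc of the urea cycle (0.122), the carboxylesterase gene Ces1g (0.122) and the annotated olfactory receptor gene Olfr90 (0.125) followed. Otc measured 21.2 ± 2.63 CPM in POLR2G livers and 14.2 ± 0.899 CPM in GFP livers. Ces1g measured 372 ± 27.4 CPM in POLR2G livers and 245 ± 32.3 CPM in GFP livers. Olfr90 was low, at 4.69 ± 0.184 CPM in POLR2G livers and 3.39 ± 0.270 CPM in GFP livers. Any of these values may hold only part of a gene's transcripts. The groups of these genes also did not overlap, which likeness to Hsd3b3 largely fixes. Among the steroid genes Srd5a1 was the nearest to Hsd3b3 at 0.252, with 325 other genes closer, then Akr1c6 at 0.258 and Hsd3b2 at 0.282. Hsd3b5 stood at 0.351 and Cyp17a1 at 1.07, against a median of 0.388 over the genes compared.

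**Figure D5:**
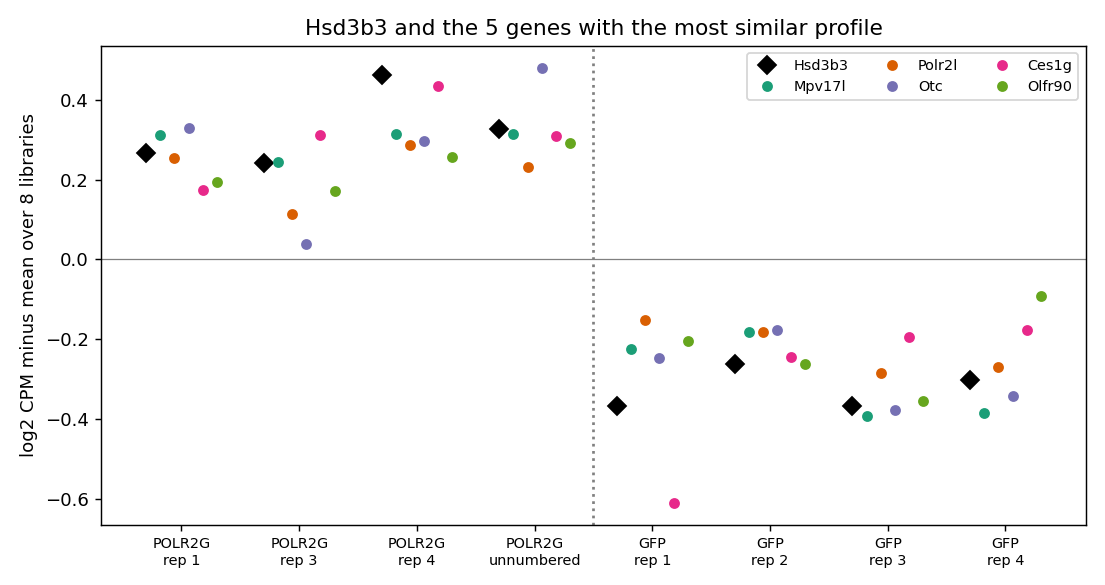
Log2 CPM minus the gene's mean over the 8 libraries, for Hsd3b3 (black diamonds) and the 5 genes most like it (coloured points), with POLR2G libraries left of the dotted line and GFP libraries right of it. All 6 genes lie above 0 in the POLR2G libraries and below 0 in the GFP libraries.

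Other genes that make, bind, convert or conjugate steroids, with sex-biased, growth hormone and lipid droplet genes, were taken from 13 lists of 179 further genes. The table held 169 of them and 126 were tested. By edgeR's quasi-likelihood test 0 of the 126 passed adjusted p 0.05, and 43 had an unadjusted p under 0.05 (28 higher and 15 lower), beside 8.30% of all genes tested. DESeq2 called 15 of the 112 it adjusted (10 higher and 5 lower), beside 1.80% of all genes it adjusted. The groups did not overlap for 23 (18.3%), 14 higher and 9 lower in POLR2G livers, beside 5.51% of all genes tested. Because the lists were chosen with earlier results of these data known, nothing is read from these shares. None of the 22 lists, marker lists included, had a gene past the edgeR threshold, so the genes below are given as values with edgeR adjusted p.

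Of the remaining Hsd3b genes only Hsd3b7, a dehydrogenase of bile acid synthesis, was tested, at log2 fold change 0.24 (SE 0.183, adjusted p = 0.787) and 0.13 without GFP replicate 3, and 74.8% of its 31-base words occurred in another gene model. Hsd3b1 had 0 counts in every POLR2G library and 0 to 7 in the GFP libraries. All 6 tested steroid reductases of the lists had a higher mean in POLR2G livers (median 0.13). Akr1c14, which reduces dihydrotestosterone, had the smallest p, at 769 ± 88.0 CPM in POLR2G livers and 632 ± 32.9 CPM in GFP livers (adjusted p = 0.443). Akr1c12 had the next smallest p, at 0.13 (SE 0.0687, adjusted p = 0.680). Among 5 other Hsd17b genes 4 had a lower mean (median -0.023, and -0.11 without GFP replicate 3), with Hsd17b6 at -0.28 (SE 0.205, adjusted p = 0.781) and Hsd17b12 at -0.096 (SE 0.103, adjusted p = 0.869).

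In the list of steroid production and electron transfer, 11 genes were tested (median -0.045), 5 with a higher and 6 with a lower mean. Without GFP replicate 3 the sign of the median turned (0.045, 6 higher and 5 lower). Cyp21a1, the adrenal hydroxylase, measured 5.15 ± 2.29 CPM in POLR2G livers and 1.83 ± 0.456 CPM in GFP livers (adjusted p = 0.262). Fdxr, which passes electrons to mitochondrial steroid hydroxylases, measured 27.3 ± 1.88 CPM in POLR2G livers and 21.6 ± 1.31 CPM in GFP livers (adjusted p = 0.269). The groups of both genes did not overlap. Cyp11a1, Cyp11b1, Cyp19a1 and Nr5a1 of this list had 0 counts in all libraries.

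Among genes that handle glucocorticoid, Serpina6, the plasma carrier of glucocorticoids, measured 201 ± 32.7 CPM in POLR2G livers and 269 ± 17.4 CPM in GFP livers (log2 fold change -0.42, SE 0.113, adjusted p = 0.350), with no overlap between the groups. Nr3c2, the mineralocorticoid receptor gene, had 0.36 (SE 0.299, adjusted p = 0.818), and the median of the 5 tested was 0.073. Of 15 glucocorticoid target genes tested 11 had a lower mean (median -0.31), with Pck1 at -0.31 (SE 0.157, adjusted p = 0.654) and Igfbp1 at -0.69 (SE 0.408, adjusted p = 0.729). Without GFP replicate 3 their median was -0.062, with 8 of 16 lower.

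Steroid conjugation genes had a median of 0.15 over 13 tested, 10 of them with a higher mean, and 0.056 without GFP replicate 3, with 9 higher. Sult2a8, a hepatic sulfotransferase of bile acids, measured 1011 ± 128 CPM in POLR2G livers and 704 ± 54.6 CPM in GFP livers, with no overlap (log2 fold change 0.52, SE 0.102, adjusted p = 0.167). Ugt2b35, a glucuronosyltransferase, had 0.25 (SE 0.0842, adjusted p = 0.460). Steroid-hydroxylating cytochromes had a median of 0.23 over 11 tested, with Cyp2c38 at -1.11 (SE 0.276, adjusted p = 0.281) and Cyp2a12 at 0.26 (SE 0.0730, adjusted p = 0.359). Esr1, the oestrogen receptor gene, had -0.29 (SE 0.339, adjusted p = 0.879), and the median of the 5 tested receptor genes was -0.057 with 4 lower. Without GFP replicate 3 that sign turned too (0.041, 3 higher and 2 lower).

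Male-biased genes had a median of 0.53 over 21 tested, 17 with a higher mean, and 0.30 without GFP replicate 3. Serpina1e and Mup3 had the smallest p, at 0.68 (SE 0.131) and 0.55 (SE 0.107), both with adjusted p = 0.166. Female-biased genes had a median of -0.69 over 9 tested, 7 with a lower mean, and -0.26 without GFP replicate 3. Acot3 had -2.28 (SE 0.477, adjusted p = 0.203). In growth hormone signalling (median 0.065 over 12 tested) the growth hormone receptor gene Ghr measured 142 ± 5.28 CPM in POLR2G livers and 108 ± 9.26 CPM in GFP livers, with no overlap (log2 fold change 0.39, SE 0.0748, adjusted p = 0.164). Without GFP replicate 3 that median was 0.16. Socs3, an inhibitor of cytokine receptors, measured 10.5 ± 2.61 CPM in POLR2G livers and 5.21 ± 0.498 CPM in GFP livers (adjusted p = 0.164). Lipid droplet genes, the setting of Hsd17b13, had a median of -0.082 over 14 tested, with the coat gene Plin4 at -1.22 (SE 0.257, adjusted p = 0.203) and the lipase inhibitor gene G0s2 at -0.96 (SE 0.319, adjusted p = 0.453).

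Summed markers of other liver cells overlapped between the groups. They were 286 to 543 CPM in POLR2G livers and 263 to 398 CPM in GFP livers for Kupffer cells and macrophages. The highest of these was the unnumbered POLR2G library, where Marco measured 60.5 CPM, against 3.92 to 9.96 CPM in the other POLR2G libraries and 2.90 to 10.5 CPM in the GFP libraries, and the sums of the other POLR2G libraries were 286 to 352 CPM. Of the 10 tested Kupffer cell and macrophage markers 9 had a higher and 1 a lower mean in POLR2G livers. Their median log2 fold change was 0.21, and 0.24 without GFP replicate 3. For endothelial cells the sums were 186 to 224 CPM in POLR2G livers and 159 to 229 CPM in GFP livers. For stellate cells the sums were 77.5 to 124 CPM in POLR2G livers and 75.6 to 150.2 CPM in GFP livers. Of the 8 tested stellate markers 5 had a higher and 3 a lower mean in POLR2G livers (median log2 fold change 0.074). Without GFP replicate 3, 7 were higher and 1 lower (median 0.28). Of the 8 tested endothelial markers 5 had a higher and 3 a lower mean in POLR2G livers (median 0.021, and 0.0087 without GFP replicate 3). The groups did not overlap for 1 of them, Lyve1, which was lower in POLR2G livers. It measured 6.99 ± 0.661 CPM in POLR2G livers and 12.6 ± 5.82 CPM in GFP livers. GFP replicate 3 had 21.1 CPM of Lyve1, and the other GFP libraries had 8.28 to 11.9 CPM. For cholangiocytes the sums were 21.1 to 25.4 CPM in POLR2G livers and 19.1 to 26.8 CPM in GFP livers. Of the 4 tested cholangiocyte markers 3 had a higher and 1 a lower mean, with GFP replicate 3 (median 0.28) and without it (0.55). For lymphocytes the sums were 11.9 to 21.1 CPM in POLR2G livers and 8.30 to 15.8 CPM in GFP livers. The 2 tested lymphocyte markers had a higher mean (median 0.31), as did all 5 that were tested without GFP replicate 3 (0.35). Adrenal cortex markers summed to 22.3 to 32.2 CPM in POLR2G livers and 24.4 to 31.4 CPM in GFP livers, most of it from Mrap (18.6 ± 2.39 CPM in POLR2G livers and 22.9 ± 3.79 CPM in GFP livers). Gonad markers summed to 3.53 to 5.67 CPM in POLR2G livers and 3.94 to 8.53 CPM in GFP livers, with Fshr, Cyp19a1 and Hsd17b3 at 0. Kidney markers summed to 0.180 to 1.05 CPM in POLR2G livers and 0.108 to 0.174 CPM in GFP livers, with Slc12a1, Kap, Slc34a1 and Slc22a12 at 0. Although these ranges do not overlap, 0 of the 10 kidney markers passed the low-count filter. In these libraries 3 counts correspond to 0.145 to 0.193 CPM, so the sums rest on few counts.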

How the data were processed

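The authors deposited estimated counts per gene as whole numbers, not normalized. Salmon 1.2.1 and 2 names of the mouse build (GRCm38, mm10) appear in the submitters' processing notes. How transcripts were summed to genes, on which annotation, and how values were rounded is not given in the sources used here. Columns were matched to samples by library name, except 1 POLR2G column whose name gives the group only. Symbols came from GENCODE M21 for 20817 of 20894 genes.

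The counts were fitted with edgeR 4.0.16 in R 4.3.3 by its two-sided quasi-likelihood test with TMM scaling and no covariate. The low-count filter (filterByExpr; minimum count 10, minimum total 15) left 10390 genes, and an adjusted p (Benjamini-Hochberg) under 0.05 was a call. The SE is the log2 fold change divided by the square root of the F statistic. Log2 CPM used a prior count of 2. The steps were tested on simulated data. DESeq2 1.42.0, other scalings and filters, a replicate block and each library left out were alternatives. Sequence identity came from global alignment (Biopython 1.88), and shared words were read on the transcript strand of GENCODE M21.

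The members and lists were chosen with earlier results of these data known. In each list up to 4 genes past the threshold, or else the 2 with the smallest p, are named (some results are not reported here); for marker lists sums are mostly given instead. The 5 genes most like Hsd3b3 are named from 8288 tested genes (mean log2 CPM 1 or more; unnamed models left out). Pairs of libraries within a group differed far beyond sampling noise, so none was counted as a duplicate. The 4 libraries per group and counting error limit the precision.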

Additional observations from a re-analysis of the deposited data

Results flagged for a closer look

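Akr1c6 measured 14.1 CPM in GFP replicate 2, against 9.42 to 9.998 CPM in the other GFP libraries. The gap to the nearest of the others was 0.876 of the whole range of the group, above Dixon's 95% critical value for 4 samples. Of 20 sets of 4 values examined (9 genes and the paralogue sum in each group) this was the one past that value, and chance passes about 1 in 20.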

How the results depend on the processing

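None of the 150 values of the member genes and the paralogue sum changed sign under 8 leave-one-library fits and the other alternatives. None changed by as much as the spread between replicates. Leaving out 1 of 4 libraries can hardly move a group mean that far, so for those fits this outcome was nearly fixed in advance. Without GFP replicate 3 the log2 fold change of Hsd3b5 went from 0.46 to 0.25 and that of Cyp17a1 from -1.33 to -0.98. Hsd3b3 ran from 0.57 (library totals only) to 0.68, and the paralogue sum from 0.40 to 0.55. The count of genes past the threshold was 4, and 1 to 6 when 1 library was left out (1 without POLR2G replicate 1 or 4, 2 without GFP replicate 2 or the unnumbered POLR2G library, 6 without GFP replicate 1). It was 1 with library totals only, 140 with DESeq2 and 2 with the replicate block; the cause was not tested. The genes of the lists past the threshold were 0, also 0 whichever library was left out, and 15 with DESeq2.

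The replicate numbers are shared by 6 libraries. Deviations from the group means of same-numbered libraries correlated at 0.064, -0.025 and 0.036 over genes for numbers 1, 3 and 4. Pairs of a POLR2G and a GFP library without a shared number ran from -0.064 to 0.051. So few pairs cannot tell whether the libraries share more than a number. With the number as a block over those 6 libraries Hsd3b3 had a log2 fold change of 0.67 (edgeR adjusted p = 0.291, which ends its call) and Cyp17a1 -1.59. Levels per kilobase of transcript instead of coding sequence, added after seeing the data, changed the order of genes as given with the levels. Genes under 10 counts, Hsd3b6 among them, could not be compared with these counts.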
